A study of Drosophila melanogaster with 4 samples.

Results

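The mRNAs for the subunits of the proteasome were followed in polysome-seq libraries of Drosophila melanogaster ovaries enriched for germline cysts. Genes were taken by symbol, as every Prosalpha, Prosbeta, Rpn or Rpt gene with a subunit number, which gave 48 of the 17699 genes in the count files. Of these, 32 code for the standard subunits of the particle (14 of the 20S core, 10 of the 19S base and 8 of the 19S lid), and 16 are paralogs whose symbol carries a T or an R after the number, a set known in flies mainly from the testis. All flies carried UAS-Dicer2;NosGAL4 > bam RNAi; hs-bam, so that a germline driver with added Dicer2 lowers bam, which germ cells need to differentiate, and a heat-shock transgene returns it. Flies were heat shocked at 37°C for 2 h, rested for 4 h and shocked again for 2 h, on 2 days, and dissected 3 to 5 days after eclosion. Lysates went onto a gradient for the polysome fraction or served as input, with 2 polysome libraries and 2 input libraries, numbered 1 and 3 in each fraction. The ovaries were not purified from somatic cells, the cyst stages are mixed, and input RNA was taken with TRIzol while polysome RNA was taken with phenol-chloroform, so that fraction and extraction cannot be told apart.

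The 26S proteasome degrades proteins that carry ubiquitin chains. Its 20S core is a barrel of stacked rings, the outer ones built from alpha subunits that gate the channel and the inner ones from beta subunits, of which Prosbeta1, Prosbeta2 and Prosbeta5 hold the caspase-like, trypsin-like and chymotrypsin-like sites. The 19S cap has a base, with a ring of Rpt ATPases that unfold the substrate and the scaffolds Rpn1 and Rpn2, and a lid, in which Rpn11 removes ubiquitin. In the early germline, where Bam and its partners drive one protein programme out and another in, protein turnover accompanies translational control.

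Gene counts totalled 19452659 and 22647905 in polysome 1 and 3, against 10646651 and 12298615 in input 1 and 3. Polysome 1 differed most in read assignment, with 10.8% of reads naming no gene, against 33.9% in polysome 3 and 42.6% and 33.2% in input 1 and 3. Polysome 3 stood apart from the other libraries, as its levels (log2(CPM + 1), 9038 genes) correlated with theirs at 0.852 to 0.859, against 0.914 to 0.922 among the others. Summed over 9 eggshell genes, expressed by follicle cells, it held 9984 CPM (counts scaled to a common library size, with TMM factors). Polysome 1 held 2389 CPM, and input 1 and 3 held 1005 and 1044 CPM. The chorion genes among them (Cp symbols) ran from 307 CPM (Cp16) to 2617 CPM (Cp15) in polysome 3. In the other libraries they reached at most 51.8 CPM (Cp36, polysome 1). The vitelline membrane genes (Vm symbols) ran from 459 to 1382 CPM in polysome 3 and from 212 to 890 CPM in the other libraries. Summed over 7 muscle sheath genes polysome 3 held 6011 CPM, against 21762 CPM in polysome 1 and 19050 and 25566 CPM in input 1 and 3. The 6 germline genes, vas, nanos and bam among them, had counts in every library and summed to 735 and 1292 CPM in polysome 1 and 3 and to 854 and 971 CPM in input 1 and 3. Within that sum otu was at 54.3 and 361 CPM in polysomes and 81.0 and 79.6 CPM in inputs, while bam was at 77.6 and 34.5 CPM in polysomes and 55.7 and 144 CPM in inputs.

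The first question was whether proteasome mRNAs took a different share of polysome RNA than of input RNA. Together the 32 standard subunits made up 0.485% and 0.679% of gene counts in polysome 1 and 3, against 0.420% and 0.329% in input 1 and 3. Of the 32, 31 passed the count filter, each with at least 527 counts in every library. By edgeR's quasi-likelihood test with Benjamini-Hochberg adjustment over 9038 genes, 0 of the 31 were called at an adjusted p under 0.05 (smallest adjusted p = 0.956), where 0% of all genes were called. DESeq2 called 0 of the 31 as well (0.463% of all genes). Of the other fits, those without polysome 3, without input 1, with no count filter and with the replicate number as a block also called 0 of the 31, where they called 0.549%, 0.0816%, 0.952% and 0.52% of all genes. At an unadjusted p under 0.05 there were 2 of 31, Prosalpha7 and Rpn3, both higher in polysomes, where 4.68% of all genes lay under 0.05 in either direction and 2.15% did so on the higher side. Nothing in the labels says that replicates came from separate flies, so these p-values cover the spread between libraries, which may be technical.

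No subunit was called, but most of their log2 fold changes lay to one side. The subunits share the same libraries and are not replicates, so this is a description. Of 31 subunits 29 had a log2 fold change of polysome over input above 0, where 49.8% of all genes did. The median was 0.45, with a range of -0.075 to 0.97, beside a median of -0.003 over all genes tested. In 16 of the 31 both polysome libraries lay above both input libraries and in 0 both lay below, where 17.2% of all genes lay above and 18.1% below. The other 15 overlapped. In bulk samples such as these, the number of cells of a type and their RNA per cell cannot be told apart.

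**Figure D1:**
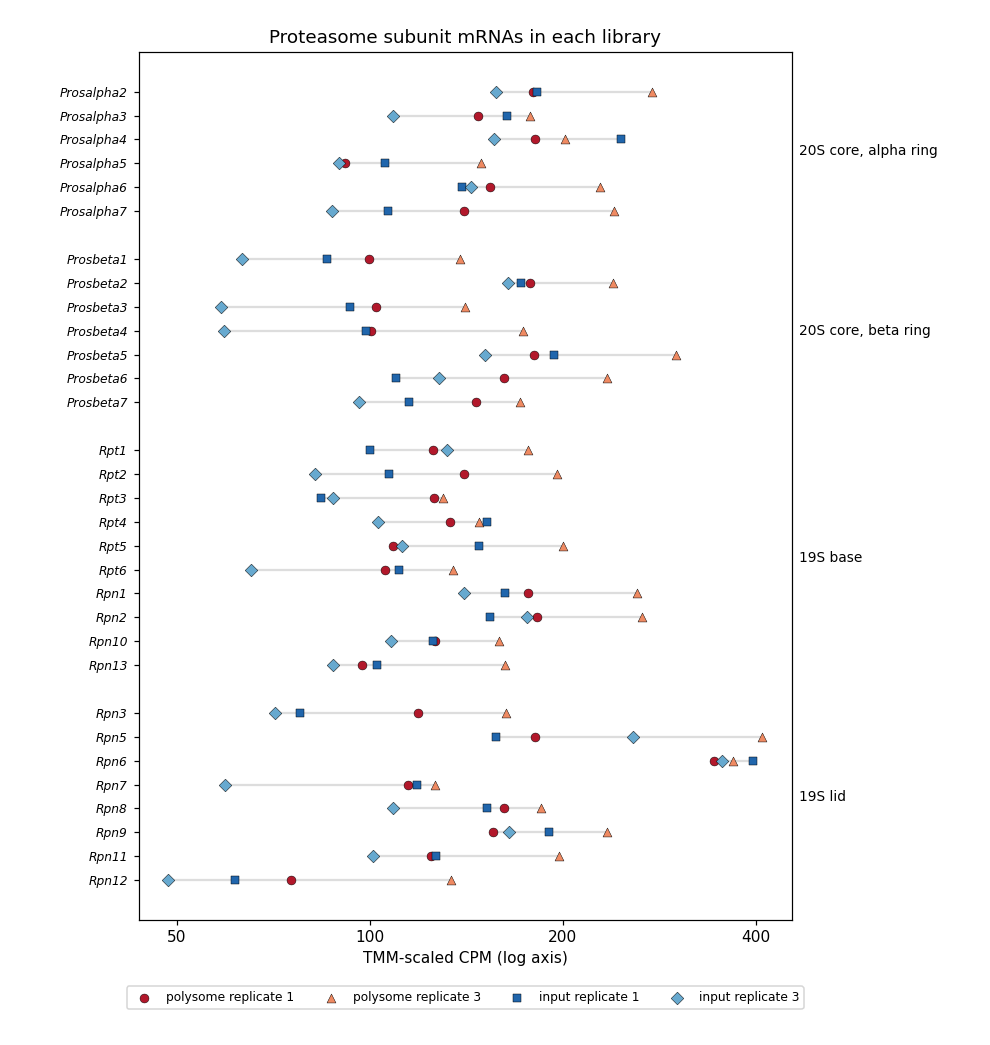
Level of 31 standard proteasome subunit mRNAs in each of the 4 libraries, as TMM-scaled CPM on a log axis, 1 row a gene, with polysome and input libraries as separate marks and the grey line joining the lowest and the highest. Polysome 3 holds the highest mark in 28 rows and input 3 the lowest in 22.

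The size of this shift depended on the library. Polysome 3 was the highest of the 4 libraries for 28 of 31 subunits, against 29.7% of all genes, and it lay above polysome 1 for all 31, against 47.9% of all genes. Input 3 was the lowest library for 22 of 31, against 21.4% of all genes. Within replicate 1 the log2 ratio of polysome to input CPM was above 0 for 18 subunits and below 0 for 13, with a median of 0.046 and a range of -0.45 (Rpt5) to 0.61 (Rpn3). Within replicate 3 it was above 0 for all 31, with a median of 0.83 and a range of 0.057 (Rpn6) to 1.55 (Prosbeta4). Over all genes with counts, the median of this ratio was 0.0062 in replicate 1 and -0.034 in replicate 3. Across 9038 genes the ratios of replicates 1 and 3, taken from log2(CPM + 1), correlated at only 0.043. Without polysome 3 the median log2 fold change of the 31 was 0.11 with 25 above 0 (48.1% of all genes), and without polysome 1 it was 0.75 with all 31 above 0 (47.3% of all genes). In the fit without polysome 1, 7 of 31 had an unadjusted p under 0.05, all of them higher, where 19.3% of all genes did and 9.1% did so on the higher side. By edgeR 0 were called there, with a smallest adjusted p of 0.0614 for Prosalpha7, where 7.24% of all genes were called. Polysome 3, the highest library for most subunits, was also the highest for 8 of 9 eggshell genes (Vm26Ab was higher in polysome 1). It was the lowest for 5 of 7 muscle sheath genes (bt and sls were lower in polysome 1). Its germline sum was the highest, and it was the highest for 4 of 6 germline genes, but not for piwi, and the lowest for bam. The part of those cells in the subunits' values was not tested.

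The alpha subunits gave 6 tested genes. Their median log2 fold change was 0.36, with 5 above 0, and 2 had both polysome libraries above both inputs (17.2% of all genes). Prosalpha7 had the largest log2 fold change of any subunit. It was at 140.3 and 241 CPM in polysome 1 and 3, against 107 and 87.4 CPM in input 1 and 3, a log2 fold change of 0.97 ± 0.42 (SE, n = 2 libraries each; edgeR adjusted p = 0.956, unadjusted 0.0487). The fractions did not overlap, and input 1 and 3 lay closer to each other than the polysome libraries did. Prosalpha6, with a log2 fold change of 0.44, was the other alpha subunit without overlap. Prosalpha4 was the one alpha subunit below 0, at 181 and 201 CPM in polysomes against 246 and 156 CPM in inputs (-0.073 ± 0.40). Here the 2 inputs spanned both polysome values, and the sign turned without polysome 1 (0.052) and without input 1 (0.29). Prosalpha2 was the most abundant alpha subunit mRNA by mean level per length in input, though below Prosalpha4 in input 1. It was at 180.05 and 276 CPM in polysomes and at 183 and 157 CPM in inputs (0.42 ± 0.40), with polysome 1 inside the range of the inputs. Prosalpha3 and Prosalpha5 were at 0.26 and 0.30 on the same scale. The alpha median was 0.080 without polysome 3 and 0.71 without polysome 1.

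Prosalpha1, the remaining alpha subunit, was listed at 0 counts in all 4 libraries, and so was Prosalpha1R. These genes lie next to each other on the minus strand of chromosome 2R (BDGP6, dm6 coordinates), Prosalpha1 from 7827303 to 7828678 and Prosalpha1R from 7830413 to 7831771, with 1734 bases between them, where CG18853 lies on the other strand, also at 0. The genes on either side had counts, with 883 and 635 in polysome 1 and 3 and 461 and 258 in input 1 and 3 for phr, and with 614 and 333 in polysome 1 and 3 and 138 and 203 in input 1 and 3 for CG12822. Gene counts by STAR keep only reads that map to a single place, so genes that share reads with a close copy are uncertain, and no level is given for this pair. How much sequence these genes share was not analysed here.

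All 7 beta subunits had a positive log2 fold change, from 0.31 to 0.79 with a median of 0.68, and in 6 of them both polysome libraries lay above both inputs (17.2% of all genes). Among the catalytic ones, Prosbeta1 was at 99.6 and 138 CPM in polysome 1 and 3, against 85.7 and 63.1 CPM in input 1 and 3 (0.68 ± 0.40). Prosbeta2, the ring's highest by mean input TPM though below Prosbeta5 in input 1, was at 178 and 239.95 CPM in polysomes against 172 and 164 CPM in inputs (0.31 ± 0.38). Prosbeta5, the target of most proteasome inhibitors, was at 180.3 and 301 CPM in polysomes against 194 and 151 CPM in inputs (0.48 ± 0.42). It was the one beta subunit whose fractions overlapped, through polysome 1, which lay below input 1. The smallest p of the ring belonged to Prosbeta6, a structural subunit, at 162 and 234 CPM in polysomes against 109.9 and 128 CPM in inputs (0.74 ± 0.39; edgeR adjusted p = 0.956). Prosbeta3 had the ring's lowest mean input TPM, though it lay above Prosbeta1 and Prosbeta7 in input 1. It was at 102 and 141 CPM in polysomes and 93.1 and 58.7 CPM in inputs (0.68 ± 0.42). Prosbeta4 was at 0.79 and Prosbeta7 at 0.59. The beta median was 0.94 without polysome 1, 0.40 without polysome 3 and 0.46 without input 3.

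The 10 base subunits were also all above 0, from 0.14 to 0.83 with a median of 0.44, and in 5 both polysome libraries lay above both inputs (17.2% of all genes). The 6 Rpt ATPases had a median of 0.41 and the 4 Rpn members of the base a median of 0.45. Rpt2 had the smallest p of the base, at 140.5 and 196 CPM in polysome 1 and 3, against 107 and 82.2 CPM in input 1 and 3 (0.83 ± 0.39; edgeR adjusted p = 0.956). Rpt3 differed from most subunits in that its replicates lay close together, at 126 and 129.97 CPM in polysomes against 84.0 and 87.7 CPM in inputs (0.58 ± 0.37). Leaving out polysome 3 gave 0.54 and leaving out polysome 1 gave 0.65. Rpt4 was the most abundant base mRNA by mean level per length in input, though below Rpt1 and Rpn10 in input 3. It was at 133 and 148 CPM in polysomes and 152 and 103 CPM in inputs (0.14 ± 0.39), so that input 1 was the highest library. Its value was -0.11 without input 3. Rpt5 was at 109 and 200.04 CPM in polysomes against 148 and 112 CPM in inputs (0.25 ± 0.43). With polysome 1 the lowest of its 4 libraries, its value was -0.28 without polysome 3. Of the scaffolds, Rpn2 was the least abundant base mRNA by mean level per length in input, though not in input 3. It was at 182 and 266 CPM in polysomes against 154 and 176 CPM in inputs (0.44 ± 0.39). Rpn1 was at 0.53, and neither scaffold had overlap. The ubiquitin receptors Rpn10 and Rpn13 were at 0.29 and 0.45, and Rpt1 and Rpt6 at 0.38 and 0.45. The base median was 0.11 without polysome 3 and 0.67 without polysome 1.

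In the lid, 7 of the 8 subunits taken by symbol were above 0 and the median was 0.47. Both polysome libraries lay above both inputs in 3 of the 8 (17.2% of all genes). Rpn3, a scaffold subunit and the mRNA with the lowest level per length in input, was at 119 and 163 CPM in polysome 1 and 3, against 77.8 and 71.0 CPM in input 1 and 3 (0.92 ± 0.39; edgeR adjusted p = 0.956, unadjusted 0.0445). Both polysome libraries lay well above the inputs, which were close together, and the value was 0.66 without polysome 3 and 1.18 without polysome 1. Rpn12 had a like value from wider libraries, at 75.2 and 134 CPM in polysomes against 61.5 and 48.5 CPM in inputs (0.93 ± 0.45). Rpn6, which clamps the lid to the core, had the highest lid CPM in every library but polysome 3, where Rpn5 was higher, at 344 and 368 CPM in polysomes and 397 and 354 CPM in inputs (-0.075 ± 0.39). Its sign turned without polysome 1 (0.025), without input 1 (0.0050) and with unstranded counts (0.037). Rpn5, another scaffold subunit, varied most between libraries of 1 fraction, at 181 and 410 CPM in polysomes against 158 and 257 CPM in inputs (0.51 ± 0.50), and was at -0.21 without polysome 3. Rpn11, the deubiquitinase, was at 125 and 198 CPM in polysomes against 127 and 101 CPM in inputs (0.50 ± 0.40), and its partner Rpn8 was at 0.41 without overlap. Rpn7 and Rpn9 were at 0.44 and 0.14. The lid median was 0.20 without polysome 3, 0.70 without polysome 1 and 0.27 without input 3.

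**Figure D2:**
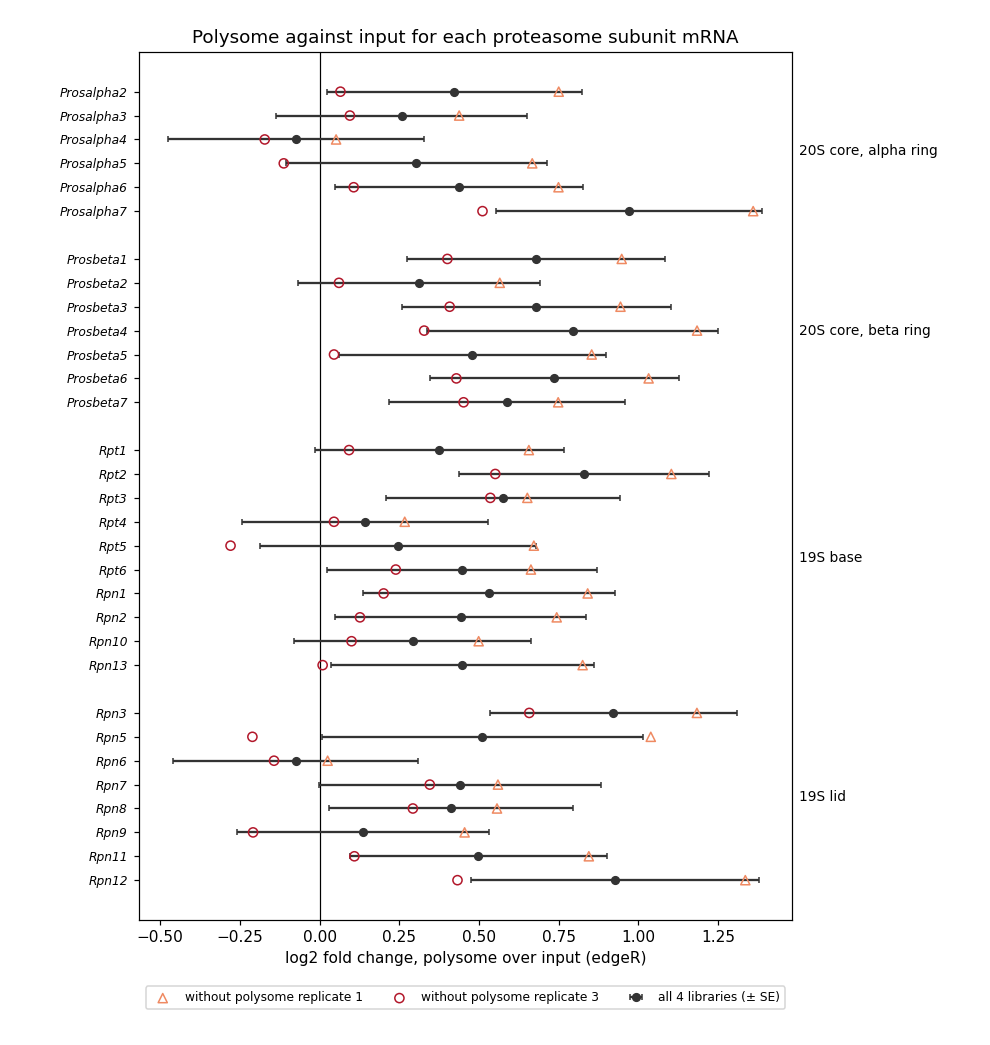
Log2 fold change of polysome over input for 31 standard subunits by edgeR, with black points and bars for the value and its SE over all 4 libraries, and open marks for the fits without polysome 1 and without polysome 3. The values without polysome 3 have a median of 0.11 and those without polysome 1 a median of 0.75, on either side of the 0.45 from all 4 libraries.

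To compare the parts of the particle with one another, the difference between their median levels was taken within each library, which removes a shift common to all subunits. In median log2 CPM, alpha exceeded beta subunits by 0.041 and 0.31 in polysome 1 and 3, against 0.46 and 0.38 in input 1 and 3. Thus both polysome libraries had alpha and beta mRNAs closer together than either input did, though polysome 3 by little against input 3. Prosalpha1 was missing from the alpha side. The core minus the base was 0.22 and 0.25 in polysomes and -0.033 and 0.044 in inputs, and the core minus the lid was 0.081 and 0.074 in polysomes and -0.27 and 0.051 in inputs. By this measure the core also stood higher against the base and the lid in both polysome libraries than in either input, though for the lid by little over input 3. For the base minus the lid the fractions overlapped, at -0.14 and -0.18 in polysomes and -0.24 and 0.0075 in inputs.

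The scale decided which of these separations held. With the mean in place of the median, an alternative chosen after the values were seen, alpha minus beta was 0.12 and 0.11 in polysomes and 0.34 and 0.35 in inputs, still without overlap. The core minus the base was then 0.10 and 0.16 in polysomes and 0.12 and 0.0028 in inputs, and the core minus the lid was -0.064 and -0.064 in polysomes and -0.059 and -0.14 in inputs, so that both overlapped. In median log2(TPM), which takes gene length into account, alpha minus beta was 0.26 and -0.10 in polysomes and 0.34 and 0.62 in inputs, and the core minus the base overlapped, at 0.88 and 1.10 in polysomes and 0.88 and 1.04 in inputs. The core minus the lid did not overlap on that scale, at 0.61 and 0.63 in polysomes and 0.40 and 0.53 in inputs. Alpha minus beta was thus lower in polysomes on all 3 scales, with its sign turned in polysome 3 by median TPM. The separations of the core from the base and the lid did not hold on all of them. These scales describe the same libraries, so each is no added evidence for another. No test was run on these values, as an exact permutation test of 2 against 2 libraries cannot go below p = 0.333.

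**Figure D3:**
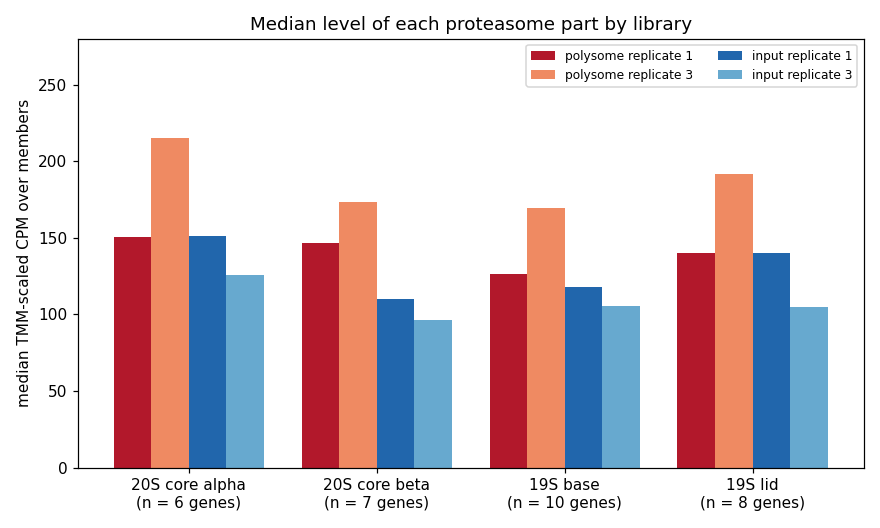
Median TMM-scaled CPM over the tested members of each part of the proteasome, as bars for each of the 4 libraries, from 0. In the beta group both polysome bars (147 and 173 CPM) stand above both input bars (109.9 and 96.2 CPM), while in the alpha and lid groups polysome 1 is about level with input 1.

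Per gene length, proteasome mRNAs were among the more abundant ones. In TPM (counts scaled by summed exon length and then to a common total) the median of the 31 subunits was 183 and 252 in polysome 1 and 3 and 152 and 118 in input 1 and 3, against 29.4 and 29.4 in polysomes and 23.8 and 24.4 in inputs over all genes tested. By mean input TPM the subunits ranged between percentiles 78.2 and 95.7 of tested genes. The subunit mRNAs differed in level, with a ratio between the highest and the lowest of 3.67 and 3.84 in polysomes and 4.93 and 4.69 in inputs. By mean input level the order ran from Rpn6, at 309 and 284 TPM in input 1 and 3, and Prosalpha2, at 301 and 266 TPM, whose values overlapped, to Rpn2, at 68.4 and 80.4 TPM, and Rpn3, at 64.3 and 60.5 TPM. In 29 of the 30 pairs of neighbours in this order the values of input 1 and 3 overlapped, the exception being Rpn2 and Rpn3 at its low end. The SD of log2(TPM + 1) among the subunits was 0.52 and 0.55 in polysomes and 0.62 and 0.63 in inputs. Core mRNAs stood above cap mRNAs on this scale, with a median of 272 and 380.5 TPM for the core and 156 and 204 TPM for the cap in polysome 1 and 3, and of 184 and 174 TPM for the core and 123 and 97.8 TPM for the cap in input 1 and 3.

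Translational efficiency (TE) as the study defines it, the log2 ratio of polysome to input TPM after adding 1 to each, was then taken for each subunit between libraries of equal number. The median TE of the 31 was 0.36 in replicate 1 and 1.03 in replicate 3, beside 0.32 and 0.086 over all genes tested. It was above 0 for 29 of 31 subunits in replicate 1 and for all 31 in replicate 3, where 67.9% and 53.2% of all genes were. In replicate 1 the subunits therefore lay near the middle of all genes, and in replicate 3 above it. Averaged over both, the median TE was 0.60 for alpha, 0.93 for beta, 0.67 for base and 0.71 for lid subunits, against 0.20 for all genes. Prosalpha7 was at 0.71 and 1.65, Rpn3 at 0.92 and 1.38, and Rpt2 at 0.71 and 1.44 in replicates 1 and 3. Prosbeta4 was at 0.34 and 1.74, while Rpt5, at -0.13 and 1.03, and Prosalpha4, at -0.12 and 0.56, were the subunits below 0 in replicate 1.

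**Figure D4:**
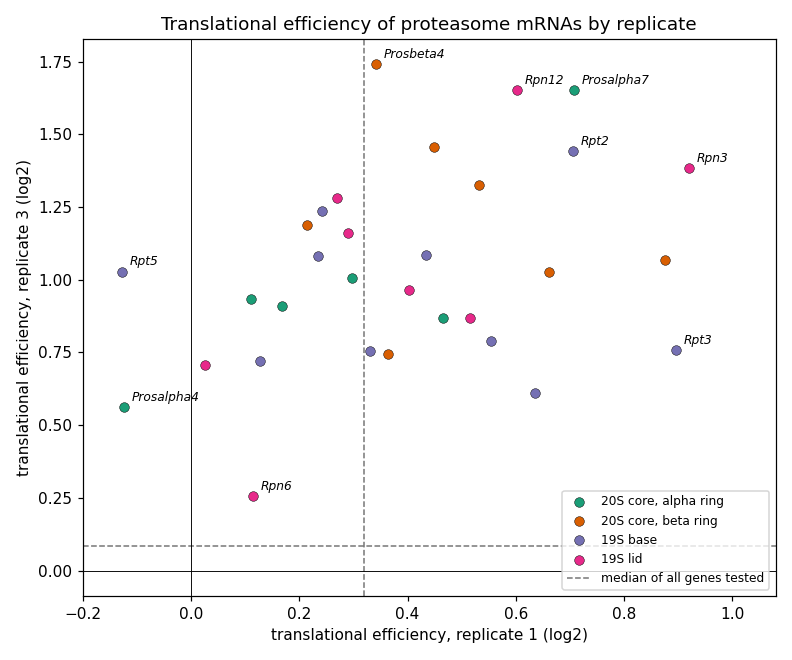
Translational efficiency (log2) of 31 standard subunit mRNAs in replicate 1 (x axis) and replicate 3 (y axis), coloured by the part of the proteasome, with dashed lines at the median of all genes tested (0.32 and 0.086). Every point lies above the horizontal dashed line, while the points fall on both sides of the vertical one.

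Shorter genes tended to higher log2 fold changes over all genes tested, so the length of the subunits was compared. Summed exon length ran from 815 to 3412 bases in the 31 subunits with a median of 1393, against a median of 2070 over all tested genes. Spearman's rho between log2 fold change and length was -0.23 across the 31 subunits and -0.16 across 8959 genes, given as descriptions, since genes share libraries and are not replicates. With the trend over all genes removed, the median of the 31 was 0.36, with 27 above 0 (52.4% of all genes), beside 0.037 over all genes.

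The paralogs had few counts or none. Of 16, 12 were at 0 counts in all 4 libraries, among them Prosalpha3T, Prosalpha4T1, Prosalpha4T2, Prosalpha6T, Prosbeta2R1, Prosbeta4R1, Prosbeta4R2, Prosbeta5R1, Prosbeta5R2, Rpn13R and Rpt4R, besides Prosalpha1R. A count of 0 allows up to 3 counts, or 0.154 and 0.132 CPM before TMM scaling in polysome 1 and 3 and 0.282 and 0.244 in input 1 and 3, which covers counting error only. This bound does not extend to Prosalpha1R, for which, as for Prosalpha1, no level is given. Few detected genes had low counts in these libraries. Of 9110 and 9003 genes with any count in polysome 1 and 3, 1.76% and 4.34% had 1 to 10 counts. The same held for 3.94% and 10.5% of 8853 and 9995 genes in input 1 and 3. Low values may be less certain than their counts imply, which was not tested.

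Only Rpt3R and Rpt6R, ATPase paralogs of the base, had counts in every library. Rpt3R had 161 and 215 counts in polysome 1 and 3 and 53 and 103 counts in input 1 and 3, or 7.62 and 8.85 CPM in polysomes against 5.15 and 9.47 CPM in inputs (log2 fold change 0.17 ± 1.12). Rpt6R had 10.4 and 6.29 CPM in polysomes against 4.76 and 6.71 CPM in inputs (0.54 ± 1.20). Neither was called by edgeR, and in both the fractions overlapped. In TPM the standard Rpt3 exceeded Rpt3R 15.5-fold and 13.7-fold in polysome 1 and 3 and 15.2-fold and 8.66-fold in input 1 and 3, and Rpt6 exceeded Rpt6R 10.4-fold and 22.0-fold in polysomes and 24.0-fold and 9.996-fold in inputs. Prosbeta2R2 was split within each fraction, with 98 counts in polysome 1, 0 in polysome 3, 0 in input 1 and 17 in input 3, and Rpn12R had 16 counts in input 3 and 0 elsewhere, so no fold is given for either. Of 17 matched testis marker genes 12 were at 0 in all libraries, dj, Mst87F and soti among them. The sum of all 17 was 1.89 and 3.21 CPM in polysome 1 and 3 and 0 and 2.94 CPM in input 1 and 3. In polysome 1 it came from can (40 counts), and in polysome 3 from janB (52 counts), fzo (25) and ProtA (1). In input 3 it came from fzo (17 counts), betaTub85D (13) and janB (2).

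Other genes that make, feed or resemble the proteasome were taken as lists, and edgeR and DESeq2 called 0 of their tested genes (0% and 0.463% of all genes), with 0 at an unadjusted p under 0.05 by edgeR (4.68% of all genes). A list of assembly factors and activators held 6 genes, of which Sem1 is a lid subunit that the symbol rule does not take. Sem1 was at 62.4 and 171 CPM in polysome 1 and 3 against 129 and 116 CPM in input 1 and 3 (-0.070 ± 0.51). Its value was -0.99 without polysome 3, 0.53 without polysome 1 and 0.18 with unstranded counts. Of the 6 genes 3 were above 0 and 3 below, with a median log2 fold change of 0.15. That median was -0.27 without polysome 3, 0.58 without polysome 1, 0.27 without input 1 and 0.013 without input 3. The assembly chaperone Pomp was at 128 and 218 CPM in polysome 1 and 3 against 131 and 121 CPM in input 1 and 3 (0.46 ± 0.41; 0.0053 without polysome 3 and 0.84 without polysome 1), and the core regulator PI31 was at 100.1 and 88.1 CPM in polysomes against 125 and 91.5 CPM in inputs (-0.20 ± 0.39; 0.036 without input 1 and 0.058 with unstranded counts). Of the genes that supply ubiquitin 4 of 5 were below 0, the same 4 with both polysome libraries below both inputs (18.1% of all genes). The median of the 5 was -0.48. It was -0.21 without polysome 1, -0.60 without polysome 3, -0.24 without input 1 and -0.47 without input 3. The polyubiquitin gene Ubi-p63E was at 138 and 166 CPM in polysomes against 211 and 263 CPM in inputs (-0.64 ± 0.38; edgeR adjusted p = 0.956). RpS27A, which codes for ubiquitin fused to a ribosomal protein, was at 1843 and 3238 CPM in polysomes against 4200.1 and 3580.5 CPM in inputs, and RpL40, of the same design, was at 1285 and 1471 CPM in polysomes against 2222 and 1628 CPM in inputs. Ubi-p5E was at 146 and 325 CPM in polysomes and at 192 and 209.9 CPM in inputs (0.23 ± 0.47; -0.47 without polysome 3). Polyubiquitin genes repeat 1 coding unit and share it, so their counts of uniquely mapped reads are uncertain.

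Of 5 shuttle and segregase genes 4 were above 0, with a median of 0.38, which was 0.12 without polysome 3 and 0.11 without input 3. The shuttle protein gene rngo was at 107 and 163 CPM in polysome 1 and 3 against 104 and 92.3 CPM in input 1 and 3 (0.47 ± 0.40; 0.12 without polysome 3), and Ubqn, another shuttle, was at 601 and 533 CPM in polysomes against 732 and 1010.2 CPM in inputs (-0.62 ± 0.40). The transcription factor gene cnc, whose human relative NRF1 drives proteasome genes, was at 275 and 400.2 CPM in polysomes against 292 and 449 CPM in inputs (-0.13 ± 0.43; 0.17 without polysome 1 and 0.21 without input 3), and its inhibitor Keap1 was at 18.8 and 25.4 CPM in polysomes against 25.4 and 16.6 CPM in inputs (0.075 ± 0.60; -0.18 without polysome 3 and -0.20 without input 3). The COP9 signalosome and eIF3 are built on the same PCI and MPN subunit plan as the lid. Of 8 tested COP9 genes 6 were above 0 and 3 lay without overlap above the inputs (17.2% of all genes), with a median of 0.54 that was 0.070 without polysome 3 and 0.87 without polysome 1. CSN6, an MPN subunit, was at 50.3 and 70.7 CPM in polysomes against 16.4 and 36.7 CPM in inputs (1.19 ± 0.56; edgeR adjusted p = 0.956), and the deneddylase CSN5 was at 87.6 and 68.4 CPM in polysomes against 96.9 and 65.4 CPM in inputs (-0.057 ± 0.42; 0.091 without polysome 3 and 0.25 without input 1). For eIF3, a translation initiation factor, 10 of 14 tested genes were above 0 and the median was 0.064, and leaving out single libraries moved it between 0.0029 (input 3 left out) and 0.28 (input 1 left out), with 0.040 for polysome 1 and 0.098 for polysome 3. eIF3a was at 460.1 and 562 CPM in polysomes against 349 and 417 CPM in inputs (0.41 ± 0.39), and eIF3h at 463 and 418 CPM in polysomes against 558 and 519.9 CPM in inputs (-0.29 ± 0.38). Whether these lists differ from the proteasome was not tested.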

How the data were processed

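Gene counts came from 2 polysome and 2 input libraries prepared with a directional kit from poly(A) RNA (fragmentation 13 min). The submitters' notes name STAR 2.6.1c and dm6. The authors deposited raw counts of uniquely mapped reads for every gene. The reverse-strand column, 95.3% to 97.1% of strand-assigned counts, was used; reads naming no gene (10.8% to 42.6%) stayed out. Names, exon lengths and coordinates came from BDGP6.54 release 115, which held 17561 of 17699 identifiers.

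All genes were fitted with edgeR 4.0.16 in R 4.3.3 (TMM, filterByExpr, fraction as the only term, quasi-likelihood test, Benjamini-Hochberg under 0.05), after the script was tested on simulated data. SEs come from the test statistic. Lists are described by counts and medians. TPM and CPM were computed here from the counts. Members and lists were chosen with earlier results of these data known. Every standard subunit taken by symbol is accounted for. Given in full are the catalytic beta subunits, and the smallest p per direction and the highest and lowest input TPM of each part. So are members not past the filter and paralogs with 10 or more counts in a library, with others named after their values were seen. From each pathway list the smallest p per direction among genes with counts in every library is named. RpS27A, RpL40 and Sem1 were added after their values were seen. Of the list symbols, Ecm29, TER94 and don were left unmatched. Alternatives were RLE and upper-quartile factors, no filter, at least 50 counts in 2 libraries, DESeq2 1.42.0, unstranded counts, each library left out, the replicate number as a block and a loess length trend removed.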

Additional observations from a re-analysis of the deposited data

How the results depend on the processing

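No standard subunit was called in any fit, including DESeq2, each library left out and the replicate block, where 0 were called with a smallest adjusted p of 0.821. The labels do not say that equal numbers mark 1 lysate, and deviations of equally numbered polysome and input libraries correlated at -0.028 over 9038 genes, so the block was kept as an alternative. With it the median over 31 subunits was 0.44, and no call changed. With a library left out the median over all subunits ran from 0.11 to 0.75, over alpha from 0.080 to 0.71, over beta from 0.40 to 0.94, over base from 0.11 to 0.67 and over lid from 0.20 to 0.70. Other normalizations, filters and unstranded counts gave 0.44 to 0.47 over all subunits. The median over the subunits of the mean TE was 0.69, with 1.03 in replicate 3 alone and 0.36 in replicate 1 alone. Some single genes, none of them called, had both signs across the fits that leave out 1 library, with ranges of -0.0084 to 0.58 for Prosalpha3, -0.36 to 0.29 for Prosalpha4, -0.11 to 0.67 for Prosalpha5, -0.11 to 0.45 for Rpt4, -0.28 to 0.67 for Rpt5, -0.21 to 1.04 for Rpn5, -0.15 to 0.025 for Rpn6, -0.21 to 0.45 for Rpn9, -0.21 to 0.68 for Rpt3R, -0.41 to 0.036 for PI31, -0.47 to 0.75 for Ubi-p5E, -0.44 to 0.21 for cnc, -0.20 to 0.41 for Keap1 and -0.31 to 0.25 for CSN5. With unstranded counts Rpn6 (0.037) and PI31 (0.058) changed sign. Sem1 aside, which ran from -0.99 to 0.53 with 1 library left out, 21 values for single genes changed sign and 474 kept it and stayed uncalled. The causes of these changes were not tested.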
